A study of Mus musculus with 8 samples.

Results

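Cd7, Hrh4, Adam8, Ggt1, Igfbp4, AA467197, Ly6c2 and Ust are 8 genes out of the 39179 listed in the files whose transcripts were far lower in follicular helper T (Tfh) cells than in other activated helper T cells (non-Tfh cells). They were selected on these measured counts, in the contrast of cell types, so the difference between cell types is given as a description without a test, and the tests concern what the Bach2 vector did to each gene. All 8 were among the 11475 genes with enough counts to test. Ust and AA467197 passed that filter through their counts in non-Tfh cells. The others also passed when the 4 Tfh libraries were filtered alone. Libraries were made from antigen-specific mouse CD4 T cells in 4 groups of 2 samples: Tfh cells with the Bach2 vector, Tfh cells with the empty control vector, non-Tfh cells with the Bach2 vector and non-Tfh cells with the empty control vector. The cells of all 4 groups were from a cross of Smarta mice, in which T cells bear a single transgenic antigen receptor, to CreERT2 mice, which make a recombinase that tamoxifen activates. All carried a retroviral vector, were transferred into C57BL/6 recipients, and met their antigen after s.c. injection of nitrophenol and GP61-80 on mouse serum albumin. Tamoxifen was injected i.p. on day 5 in all 4 groups, so the empty-vector cells carried the recombinase and saw the drug as well, and cells were taken 18 hours later, on day 6, from inguinal lymph nodes that were pooled. Sorting took Thy-1.1+ CD44hi cells that were CXCR5+ PD-1+ (Tfh) or CXCR5- PD-1- (non-Tfh). The ages of the mice are not given in the labels.

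Bach2 is a repressor of the basic leucine zipper family, which pairs with small Maf proteins on DNA and restrains effector differentiation of T cells. Tfh cells enter the B cell follicle and help B cells there, whereas other helper cells can leave the lymph node and act in tissues, and many receptors, proteases and surface proteins of tissue-seeking cells are low in Tfh cells. The 8 genes come from different pathways. Cd7 and Ly6c2 encode proteins of the lymphocyte surface, and Hrh4 encodes the histamine H4 receptor, a G protein-coupled receptor of blood cells. Adam8 encodes a membrane-bound metalloprotease that cleaves adhesion and other surface proteins, and Ggt1 the surface enzyme gamma-glutamyltransferase, which starts the breakdown of extracellular glutathione. Igfbp4 encodes a secreted protein that binds insulin-like growth factors, Ust a Golgi enzyme that adds sulfate to uronic acid in chondroitin and dermatan sulfate, and AA467197 a small mitochondrial protein, related to the cytochrome oxidase subunit Ndufa4, whose transcript also carries a microRNA.

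The libraries held 7862879 to 9889859 counts each. Levels are in CPM (counts scaled to a common library size), and 3 counts, the most that a listing at 0 leaves possible with 95% confidence, came to 0.303 to 0.382 CPM. Bach2 itself averaged 127.7 ± 9.84 CPM in Bach2 Tfh cells and 12.6 ± 1.99 CPM in empty-vector Tfh cells (SD, n = 2 each). In non-Tfh cells it averaged 143.9 ± 19.1 CPM with the Bach2 vector and 26.9 ± 2.87 CPM with the empty vector (SD, n = 2 each). The 10 Tfh markers summed to 2610 to 3068 CPM in Bach2 Tfh cells and 3232 to 3665 CPM in empty-vector Tfh cells, and to 993 to 1148 CPM in Bach2 non-Tfh cells and 1438 to 1549 CPM in empty-vector non-Tfh cells. The 8 T cell markers summed to 10929 to 15359 CPM in all 8. Neutrophil markers summed to at most 0.334 CPM in any library and B cell markers to 2.41 to 13.7 CPM.

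In non-Tfh cells, where the genes are expressed, Cd7, Hrh4 and Adam8 fell with the Bach2 vector by 0.97, 0.66 and 1.34 on the log2 scale, and none of the 8 genes rose. These 3 of 8 stand against 100 of all 11475 tested genes past the threshold (adjusted p under 0.05 in edgeR's quasi-likelihood test, Benjamini-Hochberg over all tested genes), or 0.871%, of which 71 fell, or 0.619%. The other 5 genes did not pass. Ggt1 had a log2 difference of -0.54, Ust one of 0.02, and Igfbp4, AA467197 and Ly6c2 had positive ones of 1.21, 0.71 and 0.48. The groups of 2 did not overlap for 7 of the 8 genes in non-Tfh cells, with 4 lower and 3 higher with the Bach2 vector, and overlapped for Ust. Among all tested genes the same absence of overlap was found in 42.2%. The median log2 difference over the 8 genes was -0.26, against 0.00072 over all tested genes. Since no label says that replicates were separate animals or cultures, the p-values measure only how far these samples spread, and in bulk samples fewer cells of a type and less RNA per cell cannot be told apart.

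**Figure D1:**
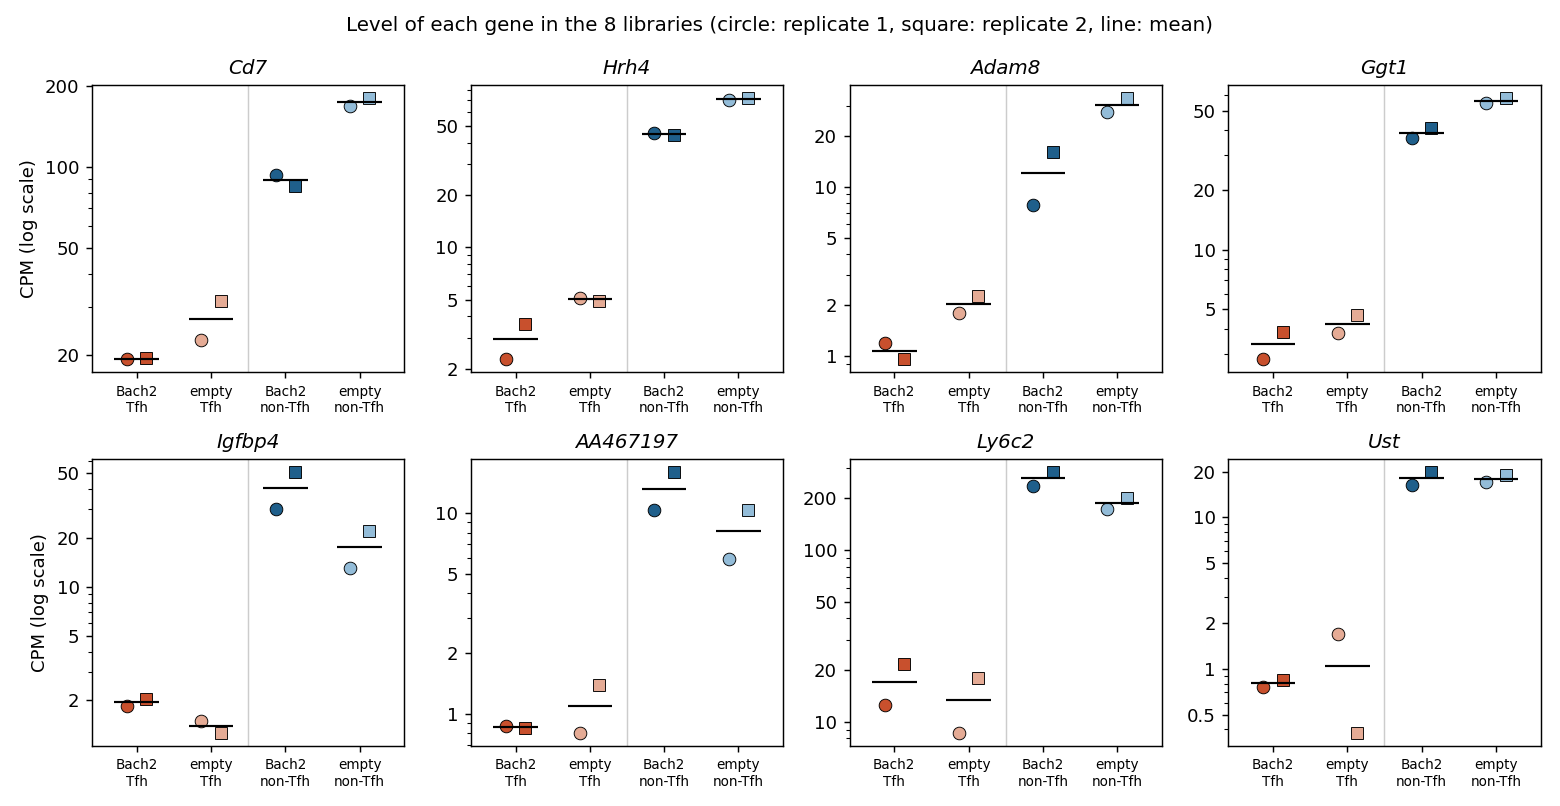
CPM on a log scale of each of the 8 genes in every library, with Bach2 and empty-vector Tfh cells left of the grey line and Bach2 and empty-vector non-Tfh cells right of it (circles replicate 1, squares replicate 2, lines the mean of 2). In the non-Tfh cells both Bach2 libraries lie below both empty-vector libraries for Cd7, Hrh4, Adam8 and Ggt1, above them for Igfbp4, AA467197 and Ly6c2, and among them for Ust.

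The plot of CPM by library shows that the gap between cell types is wide for every gene and that the differences between vectors within a cell type were smaller than that gap. With the Bach2 vector, Tfh levels were between 4.40% (Ust) and 21.7% (Cd7) of non-Tfh levels. With the empty vector they were between 5.77% (Ust) and 15.6% (Cd7). Cd7 was the least separated of the 8, with a Tfh minus non-Tfh log2 difference of -2.20 with Bach2 and -2.69 with the empty vector. In the order of all tested genes by the mean of the 2 differences, Cd7 stood at rank 179 with -2.44, next to Dkkl1 at -2.45 and Serpine2 at -2.44, which were not among the 8. The most separated was Ust, with -4.49 with Bach2 and -4.01 with the empty vector, at rank 28. In a comparison added after the data were seen, 128 tested genes had a Tfh minus non-Tfh log2 difference at least as low as that of Cd7 with both vectors. Of the other 120 genes in that set, 7 fell and 2 rose with Bach2 in non-Tfh cells. That is 5.83% fallen and 7.5% past the threshold, against 0.619% and 0.871% of all tested genes. Genes with a gap at least as wide as that of Cd7, the narrowest of the 8, were thus called more often than tested genes in general. This difference was not tested. The set was drawn by the contrast that chose the 8, and that contrast shares the non-Tfh libraries with the Bach2 calls, so it is no separate support.

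Per kilobase of exon, Cd7 had the highest level of the 8 in empty-vector non-Tfh cells, at 153.6 ± 7.60 CPM per kb, followed by Ly6c2 at 68.1 ± 7.21 CPM per kb, Hrh4 at 43.8 ± 0.956 CPM per kb and Ggt1 at 16.5 ± 0.690 CPM per kb (SD, n = 2 each). AA467197 at 6.74 ± 2.62, Adam8 at 6.56 ± 0.898, Igfbp4 at 3.97 ± 1.43 and Ust at 3.90 ± 0.325 CPM per kb (SD, n = 2 each) formed a lower set, in which AA467197 and Adam8, and Igfbp4 and Ust, differed by less than their spread. With the Bach2 vector in non-Tfh cells the order was another. Ly6c2 led at 95.3 ± 12.6 CPM per kb, Cd7 followed at 78.6 ± 5.13 CPM per kb, and Hrh4 at 27.7 ± 0.624 CPM per kb (SD, n = 2 each). Igfbp4, at 9.21 ± 3.38 CPM per kb, then stood beside AA467197 at 11 ± 3.39 CPM per kb and Ggt1 at 11.3 ± 1.01 CPM per kb, closer than their spread (SD, n = 2 each). Ust at 3.94 ± 0.543 CPM per kb and Adam8 at 2.58 ± 1.26 CPM per kb (SD, n = 2 each) were the lowest. In Tfh cells Cd7 kept the highest level per kilobase, at 17.1 ± 0.0828 with Bach2 and 24.0 ± 5.53 CPM per kb with the empty vector (SD, n = 2 each), ahead of Ly6c2 at 6.24 ± 2.33 and 4.85 ± 2.41 CPM per kb, and the other 6 genes had means between 0.173 and 3.09 CPM per kb.

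Cd7, an immunoglobulin-type receptor of T and NK cells whose ligands include the Sectm1 proteins, showed the smallest adjusted p of the 8 genes. The gene lies on chromosome 11 at 121036747 to 121039418 (GRCm38). In non-Tfh cells it had 93.2 and 85.0 CPM with the Bach2 vector, against 167.9 and 180.1 CPM with the empty vector. Both Bach2 libraries were thus near 0.512 of the level in the empty-vector libraries, and the 4 values lay in separate ranges. The log2 difference was -0.97 with an SE of 0.124 and an adjusted p of 0.00193 in edgeR's test. The call was lost only without replicate 2 of the empty-vector non-Tfh cells, among 15 alternatives, with an adjusted p of 0.0532 there and a range down to 4.1e-14. In Tfh cells Cd7 had 19.3 and 19.4 CPM with Bach2 and 22.7 and 31.6 CPM with the empty vector, so both Bach2 libraries were the lower ones. The log2 difference of -0.48 (SE 0.15) had an adjusted p of 0.125 in edgeR's test and did not pass. It rested on the empty-vector Tfh libraries, with -0.71 (adjusted p 0.026) without replicate 1 and -0.23 (adjusted p 0.697) without replicate 2, and it also passed with no filter on low counts (adjusted p 0.0183). Of the 12 tested genes in a list of Cd7 ligands and T cell coreceptors, Cd7 alone passed, in non-Tfh cells and in the mean of both cell types, and the median log2 difference of that list was -0.12 in non-Tfh cells. Part of the transcript, 50 of its 1059 windows of 75 bases, matches the overlapping antisense gene Gm11775, which had 0 counts in all 8 libraries.

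Hrh4, the histamine receptor through which histamine acts on eosinophils, mast cells and T cells, fell in non-Tfh cells as well. It had 45.7 and 44.2 CPM in Bach2 non-Tfh cells, against 70.1 and 72.3 CPM in empty-vector non-Tfh cells. The replicates of each group lay much closer to each other than the groups did. The log2 difference was -0.66 with an SE of 0.138, and the adjusted p was 0.0388 in edgeR's test. That call is near the threshold: without any 1 of the 4 non-Tfh libraries the adjusted p rose to between 0.129 and 0.362, while the log2 difference stayed between -0.69 and -0.64. In Tfh cells Hrh4 had 2.28 and 3.62 CPM with Bach2, against 5.11 and 4.93 CPM with the empty vector. The direction in Tfh cells was the same, on 21 to 51 counts in a library, with a log2 difference of -0.78 (SE 0.241) that did not pass (adjusted p 0.122 in edgeR's test). Without replicate 1 of the Bach2 Tfh cells it was -0.47, and without replicate 2 it was -1.14. The 3 other tested genes of histamine synthesis, transport and reception (Hdc, Hrh2 and Slc18a2) did not pass in any comparison. With Hrh4 included, the median log2 difference of those 4 genes was 0.26 in non-Tfh cells. Mast cells, basophils and eosinophils also carry the receptor. Their 9 markers summed to 5.44 to 6.43 CPM in Bach2 non-Tfh cells and 3.0 to 3.596 CPM in empty-vector non-Tfh cells. Most of this was Siglecf, at 3.81 ± 0.162 CPM with Bach2 and 2.04 ± 0.262 CPM with the empty vector (SD, n = 2 each). Hdc followed, at 1.92 ± 0.680 and 1.21 ± 0.605 CPM (SD, n = 2 each). Cpa3, Fcer1a, Ms4a2, Prss34, Epx and Prg2 had 0 counts in the non-Tfh libraries. The 2 tested markers, Hdc and Siglecf, did not pass, and the part of this list in the result was not tested.

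Adam8 had the largest fall of the 3 and the widest spread. The gene is at chromosome 7, 139978932 to 139992562 (GRCm38). Its level was 7.85 and 16.1 CPM in Bach2 non-Tfh cells and 27.5 and 33.4 CPM in empty-vector non-Tfh cells. The higher Bach2 library was still below the lower empty-vector one, but the 2 Bach2 libraries differed from each other by a log2 value of 1.02. Adam8 fell by 1.34 on the log2 scale (SE 0.269, adjusted p 0.0359 in edgeR's test), to 0.396 of the empty-vector level. Without replicate 1 of the Bach2 non-Tfh cells, the lower library, the log2 difference was -0.92 and the adjusted p 0.129, and without replicate 2 they were -1.95 and 0.00584. The call was also lost without either empty-vector library of either cell type (adjusted p 0.0563 to 0.362) and when only the 4 non-Tfh libraries were fitted (0.0976). In Tfh cells, Adam8 had 1.19 and 0.965 CPM with Bach2 and 1.80 and 2.28 CPM with the empty vector, on 8 to 18 counts per library. Its log2 difference there was -0.89 (SE 0.520, adjusted p 0.438 in edgeR's test). The other 12 tested genes in a list of ADAM and ADAMTS proteases with their inhibitors did not pass in non-Tfh cells, in Tfh cells or in the mean. The median of the 13 was -0.11 in non-Tfh cells. The kit does not mark strand, and 46 exonic bases of Adam8 overlap the antisense gene Gm16201, which had 0 to 7 counts in a library.

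Ggt1 had lower values with the Bach2 vector that did not pass the threshold. It lies on chromosome 10 at 75561604 to 75586200 (GRCm38). It had 36.2 and 41.1 CPM in Bach2 non-Tfh cells, against 54.5 and 57.8 CPM in empty-vector non-Tfh cells, in ranges that did not overlap. The log2 difference of -0.54 (SE 0.146) had an adjusted p of 0.140 in edgeR's test. Ggt1 passed in 1 of the 15 alternatives, that with no filter on low counts, with an adjusted p of 0.0414. In Tfh cells, where it had 2.82 and 3.86 CPM with Bach2 and 3.81 and 4.68 CPM with the empty vector, the libraries of both vectors overlapped. The log2 difference there was -0.34 (SE 0.249, adjusted p 0.561 in edgeR's test), between -0.57 and -0.12 with 1 library left out. Among the 21 tested genes of glutathione synthesis, use and breakdown, 2 passed. Glrx, a glutaredoxin that uses glutathione to reduce proteins, fell in non-Tfh cells and in the mean, and Gsr, the enzyme that regenerates reduced glutathione, fell in the mean alone. Glrx averaged 164.9 ± 0.133 CPM in Bach2 non-Tfh cells and 257 ± 27.7 CPM in empty-vector non-Tfh cells (SD, n = 2 each), and fell by 0.64 on the log2 scale (SE 0.121, adjusted p 0.0275 in edgeR's test). Over both cell types Gsr fell by 0.34 (SE 0.0682, adjusted p 0.0133 in edgeR's test). The median of the 21 genes was -0.03 in non-Tfh cells.

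**Figure D2:**
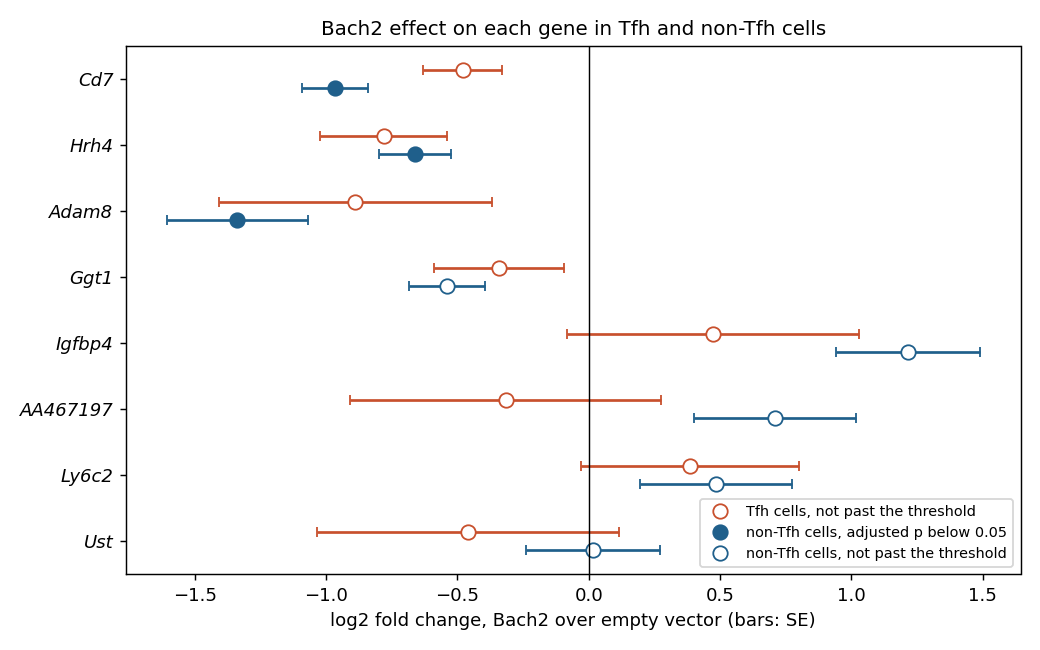
The log2 difference of Bach2 over empty vector, with its SE, for each of the 8 genes in Tfh cells (red) and non-Tfh cells (blue), with filled points past the threshold of adjusted p 0.05. The filled points are Cd7, Hrh4 and Adam8 in non-Tfh cells, and the bars in Tfh cells are the wider ones for every gene.

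Igfbp4, AA467197 and Ly6c2 had higher values with the Bach2 vector in non-Tfh cells, and none of these 3 passed the threshold. Igfbp4, which is expressed by naive T cells as well as in many tissues, is on chromosome 11 at 99041244 to 99054392 (GRCm38). It had 30.1 and 51.2 CPM in Bach2 non-Tfh cells, against 13.1 and 22.0 CPM in empty-vector non-Tfh cells. Both Bach2 libraries were the higher ones, but the replicates of each group lay further apart than the gap between the groups. Replicate 1 was the lower one in both groups, and its log2 difference to replicate 2 was -0.76 with Bach2 and -0.74 with the empty vector. The log2 difference was 1.21 with an SE of 0.274 and an adjusted p of 0.0839 in edgeR's test. Igfbp4 passed in 4 of the 15 alternatives. Among them, DESeq2 gave an adjusted p of 0.0129, edgeR with no filter on low counts 8.8e-08, and edgeR without replicate 1 of the Bach2 non-Tfh cells 0.0151, over a range up to 0.550, reached without replicate 2 of the Bach2 non-Tfh cells, where the log2 difference was 0.78. In Tfh cells it had 1.84 and 2.05 CPM with Bach2 and 1.503 and 1.264 CPM with the empty vector, on 10 to 17 counts per library. The values were in the same order as in non-Tfh cells, with a log2 difference of 0.47 (SE 0.557, adjusted p 0.747 in edgeR's test). Of the 8 tested genes of the insulin-like growth factor axis, 2 rose in the mean of both cell types and none in either cell type alone. These were Igf2r, a receptor that clears the ligand, by 0.42 (SE 0.0854, adjusted p 0.0141 in edgeR's test), and Insr, the insulin receptor, by 0.69 (SE 0.15, adjusted p 0.0182). The list's median was 0.36 in non-Tfh cells.

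AA467197 lies on chromosome 2 at 122636986 to 122641191 (GRCm38). Its level was 10.4 and 16.1 CPM in Bach2 non-Tfh cells and 5.88 and 10.3 CPM in empty-vector non-Tfh cells. The lower Bach2 library was almost level with the higher empty-vector library. The log2 difference of 0.71 (SE 0.310) had an adjusted p of 0.448 in edgeR's test. It was 0.35 without replicate 2 of the Bach2 non-Tfh cells, and 0.36 and 1.17 without replicate 1 and replicate 2 of the empty-vector non-Tfh cells. In Tfh cells it had 0.867 and 0.845 CPM with Bach2 and 0.802 and 1.39 CPM with the empty vector, so the groups overlapped, on 7 to 11 counts per library. The microRNA gene Mir147, which lies in an exon of AA467197, was listed at 0 counts in all 8 libraries, in counts of long transcripts that say nothing of a mature microRNA. Of the 14 tested genes of the list of Ndufa4 relatives and cytochrome oxidase subunits, Cycs, the cytochrome c that passes electrons to the oxidase, was the 1 to pass, with a fall of 0.47 in Tfh cells (SE 0.110, adjusted p 0.0483 in edgeR's test). The list's median was -0.13 in non-Tfh cells.

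Start windows were searched for 6 of the 8 genes, all but Cd7 and Hrh4. Because AA467197 was the 1 of these 6 with the core letters bound by basic leucine zipper proteins of this kind, and Adam8 and Igfbp4 had the largest differences in each direction, the windows from 250 bases before to 50 bases after the annotated start of these 3 genes are shown (RefSeq, GRCm38.p6). The windows run 5′ to 3′ on their own strand, which is the plus strand for AA467197 (chr2:122637637-122637936) and Igfbp4 (chr11:99040994-99041293) and the minus strand for Adam8 (chr7:139992513-139992812). Capitals mark TGANTCA in AA467197 and TATAAA in Igfbp4. The mature miR-147-5p of the AA467197 transcript is added, with its seed (bases 2 to 8) in capitals.
AA467197: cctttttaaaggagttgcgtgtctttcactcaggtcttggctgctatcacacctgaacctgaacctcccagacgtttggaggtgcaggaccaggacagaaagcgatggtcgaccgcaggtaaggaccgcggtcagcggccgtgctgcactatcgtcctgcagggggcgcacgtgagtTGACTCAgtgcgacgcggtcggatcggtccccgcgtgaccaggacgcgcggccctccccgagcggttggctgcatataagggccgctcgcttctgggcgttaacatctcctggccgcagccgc
Igfbp4: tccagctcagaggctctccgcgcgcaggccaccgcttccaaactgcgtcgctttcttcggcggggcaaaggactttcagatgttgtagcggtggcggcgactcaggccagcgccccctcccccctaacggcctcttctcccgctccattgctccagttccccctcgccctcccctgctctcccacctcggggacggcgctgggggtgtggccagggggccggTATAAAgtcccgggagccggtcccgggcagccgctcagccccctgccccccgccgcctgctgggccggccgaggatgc
Adam8: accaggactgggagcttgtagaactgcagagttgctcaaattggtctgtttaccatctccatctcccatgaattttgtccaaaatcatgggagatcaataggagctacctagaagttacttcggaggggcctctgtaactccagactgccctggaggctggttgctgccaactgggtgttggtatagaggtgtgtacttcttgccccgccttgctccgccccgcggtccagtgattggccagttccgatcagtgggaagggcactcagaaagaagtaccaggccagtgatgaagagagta
mmu-miR-147-5p: uGGAAACAuuucugcacaaacuag

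In AA467197 the letters TGACTCA begin 73 bases before the start. The 6 genes had 10 windows, and TGANTCA, a palindrome read on both strands, was in 1 of the 10. It was in 2565 of all 32851 windows of this length, or 7.81%. The longer form GCTGANTCA, searched on both strands and always holding a TGANTCA, was in none of the 10 and in 1.19% of all windows. TATAAA, searched on the gene's strand, was found in Igfbp4, 28 bases before the start, and in 8.32% of all windows. A match describes letters only.

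Ly6c2, a lipid-anchored surface protein of the Ly6 family found on monocytes and on effector and memory T cells, had higher values with the Bach2 vector that did not pass. It lies on chromosome 15 at 75108158 to 75111970 (GRCm38). The libraries held 237 and 286 CPM in Bach2 non-Tfh cells, against 173 and 200.7 CPM in empty-vector non-Tfh cells. The ranges did not overlap, yet the log2 difference of 0.48 (SE 0.290) had an adjusted p of 0.659 in edgeR's test. In Tfh cells it had 12.6 and 21.6 CPM with Bach2 and 8.62 and 18.0 CPM with the empty vector, and the 4 values overlapped. Its copy Ly6c1 shares 259 of the 2737 windows of 75 bases in Ly6c2, or 9.46%, so reads there could be assigned to either gene. Ly6c1 averaged 14.4 CPM in Bach2 non-Tfh cells and 13.8 CPM in empty-vector non-Tfh cells, and its log2 difference was 0.06 (SE 0.251, adjusted p 0.970 in edgeR's test). Another member of the family, Ly6a, the stem cell antigen that activated T cells express, fell in both cell types. It averaged 1039 ± 47.6 CPM in Bach2 non-Tfh cells and 1459 ± 42.1 CPM in empty-vector non-Tfh cells (SD, n = 2 each), a log2 difference of -0.49 (SE 0.0785, adjusted p 0.00949 in edgeR's test). In Tfh cells its log2 difference was -0.42 (SE 0.0786, adjusted p 0.0178 in edgeR's test). Of the 6 tested genes of the Ly6 list, Ly6a was the 1 to pass, and the median was -0.0020 in non-Tfh cells.

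Ust did not differ detectably with the Bach2 vector. It is on chromosome 10 at 8204756 to 8518825 (GRCm38). It had 16.5 and 20.0 CPM in Bach2 non-Tfh cells and 17.0 and 19.1 CPM in empty-vector non-Tfh cells, with the Bach2 values on either side of the empty-vector ones. The log2 difference was 0.02 (SE 0.256, adjusted p 0.993 in edgeR's test). Its Tfh levels of 0.759 and 0.845 CPM with Bach2 and 1.70 and 0.379 CPM with the empty vector rested on 3 to 17 counts, the lowest at the floor of that library. There the log2 difference was -0.46 (SE 0.576), and it became 1.05 without replicate 1 of the empty-vector Tfh cells, so no direction can be read. Of the 32 tested genes of chondroitin, dermatan and heparan sulfate synthesis, none passed in non-Tfh cells. Hs3st3b1, which adds sulfate to heparan chains, rose by 0.85 in Tfh cells (SE 0.174, adjusted p 0.0248 in edgeR's test), and with Xylt1, which starts the chains, it rose in the mean of both cell types, by 0.61 and 0.74 (adjusted p 0.0101 and 0.0284). The median of the 32 genes was 0.13 in non-Tfh cells.

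**Figure D3:**
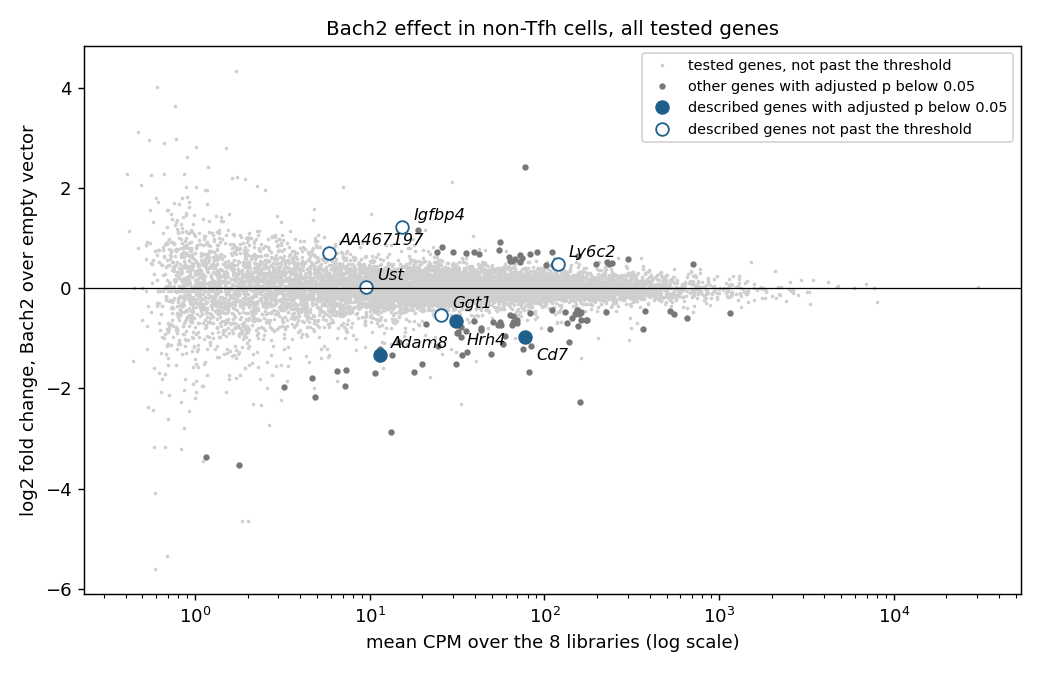
The log2 difference of Bach2 over empty vector in non-Tfh cells (vertical) against the mean CPM over all 8 libraries on a log scale (horizontal) for the 11475 tested genes, with the 8 genes ringed or filled in blue. Cd7, Hrh4 and Adam8 lie among the dark points past the threshold, Igfbp4 lies highest of the 8 without passing, and Ust lies on the zero line.

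The plot of all tested genes sets the 8 beside genes of like mean level, where the spread of differences narrows as the level rises. In Tfh cells none of the 8 passed in edgeR's test, while 196 of all tested genes did, or 1.71%. At an unadjusted p under 0.05 in edgeR's test there were 2 of the 8, Cd7 and Hrh4, and DESeq2 also called 0 of them. At least 1484 of all 11475 tested genes were under 0.05 too, so the 2 are not read as a result about these genes. The libraries did not overlap for 4 of the 8 genes in Tfh cells, with Hrh4, Adam8 and Cd7 lower and Igfbp4 higher with Bach2, against 44.6% of all tested genes. The median log2 difference over the 8 was -0.40 in Tfh cells.

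Averaged over both cell types, Cd7, Hrh4 and Adam8 fell again. This mean shares its libraries with the comparisons above. The 3 of 8 stand against 605 of all tested genes past the threshold, or 5.27%, of which 333 fell, or 2.9%. Cd7 fell by 0.72 (SE 0.0973, adjusted p 0.00134 in edgeR's test) and Hrh4 by 0.72 (SE 0.138, adjusted p 0.0103), and both passed under all 14 alternatives of this mean. Adam8 fell by 1.11 (SE 0.292, adjusted p 0.0437), and its call was lost without any 1 of the 4 Tfh libraries or either empty-vector non-Tfh library (adjusted p 0.0745 to 0.189). Ggt1 was at -0.44 (SE 0.144, adjusted p 0.0944) and Igfbp4 at 0.84 (SE 0.311, adjusted p 0.148), and neither passed. Igfbp4 passed in 4 of the 14 alternatives of the mean, among them DESeq2 (adjusted p 0.0477), edgeR with no filter on low counts (0.0036) and edgeR without replicate 1 of the Bach2 non-Tfh cells (0.0305), over a range up to 0.392.

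No gene of the 8, and 0 of all tested genes (0%), passed the test of the difference between the Bach2 effects in the 2 cell types, so an effect seen in non-Tfh cells is not shown to differ in Tfh cells. At an unadjusted p under 0.05 edgeR gave 539 genes, and DESeq2 called 4 genes past the threshold, with none of the 8 among them. Cd7 was the 1 of the 8 under an unadjusted 0.05, with a Tfh minus non-Tfh difference of 0.49 (SE 0.195, adjusted p 0.985). For AA467197, which had a positive difference in non-Tfh cells and a negative one in Tfh cells, it was -1.02 (SE 0.672, adjusted p 0.998).

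**Figure D4:**
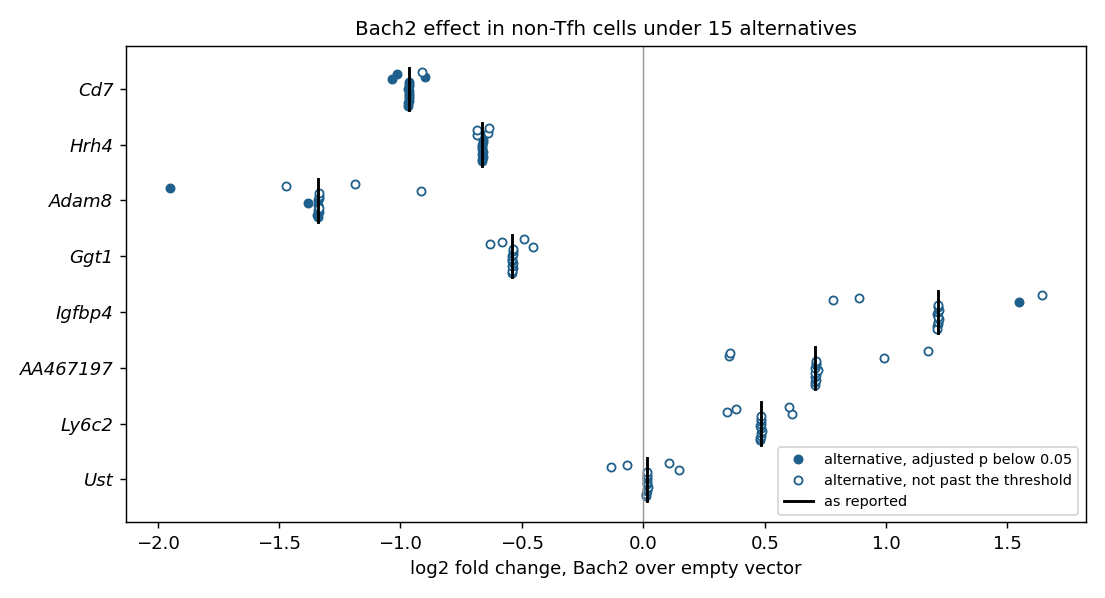
The log2 difference of Bach2 over empty vector in non-Tfh cells for each of the 8 genes under 15 alternative settings (circles, filled where the adjusted p was below 0.05) and as reported (black bar). Cd7 passes in 14 of 15, Hrh4 in 11 and Adam8 in 9, and Ust lies on both sides of 0.

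The plot of alternative settings shows that Cd7, Hrh4, Ggt1 and Adam8 stayed below 0 and Igfbp4, AA467197 and Ly6c2 above 0 in non-Tfh cells under all 15 settings, with Adam8 (-1.95 to -0.92), Igfbp4 (0.78 to 1.64) and AA467197 (0.35 to 1.17) moving most.

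Each gene has neighbours in profile, found by the smallest root mean square difference of centred log2 CPM over the 8 libraries, a measure that mostly follows the gap between cell types by which the genes were chosen. The same libraries gave the Bach2 tests, so a near gene that fell or rose likewise is no separate support. Nearest to Cd7 was Fut7, a fucosyltransferase that makes selectin ligands, with a distance of 0.176 on the log2 scale. Fut7 averaged 71.9 ± 1.13 CPM in Bach2 non-Tfh cells and 114.9 ± 4.20 CPM in empty-vector non-Tfh cells (SD, n = 2 each), and fell by 0.68 (SE 0.136, adjusted p 0.0313 in edgeR's test). Next for Cd7 was Galnt3 (0.233), a glycosyltransferase. Hrh4 was closest to Il2ra (0.183), the high-affinity interleukin-2 receptor chain, and Ifitm1 (0.251), an interferon-induced membrane protein that fell by 1.15 in non-Tfh cells (SE 0.180, adjusted p 0.0207 in edgeR's test). Ggt1 was nearest to Ifitm3 (0.184) and the chemokine receptor gene Cxcr6 (0.188), and Adam8 to Fam129b (0.270) and Plcd1 (0.332), none of which passed in non-Tfh cells. Igfbp4 and Ly6c2 both had Gzma, the cytotoxic granule protease granzyme A, as their nearest gene (0.343 and 0.260). The second nearest was Klrd1 for Igfbp4 (0.369) and Klrk1 for Ly6c2 (0.269), genes of receptors shared with NK cells. Klrd1 rose by 0.72 in non-Tfh cells (SE 0.154, adjusted p 0.0436 in edgeR's test), and Gzma, at 0.66 (SE 0.268, adjusted p 0.443), did not pass. AA467197 was nearest to Epha8 (0.241) and Coro2a (0.248), and Ust to Il2ra (0.420) and Tbc1d2 (0.514), the most distant match of the 8. Among the 8 themselves Hrh4 and Ggt1 were the closest pair, at 0.230.

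The nearest tested gene on either side of each of the 8, 16 in all, did not pass in non-Tfh cells. They include Ly6c1 beside Ly6c2, the related enzyme gene Ggt5 beside Ggt1, and Ccr7, the lymph node homing receptor, beside Igfbp4. Ccr7 had a log2 difference of 0.61 (SE 0.210, adjusted p 0.381 in edgeR's test). The largest difference of the 16 was that of Ggt5, at 2.63 (SE 0.784, adjusted p 0.194). Impact, beside Hrh4, had the smallest adjusted p of the 16, with a difference of -0.79 (SE 0.198, adjusted p 0.0970). Distances ran from 1274 bases (Lrrc75b beside Ggt1) to 1601316 bases (Ss18 beside Hrh4).

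Markers of the 2 sorted cell types moved with some of these genes too. In non-Tfh cells the 10 Tfh markers had a median log2 difference of -0.44 with sums that did not overlap between vectors, in the direction of Cd7, Hrh4, Adam8 and Ggt1, and none passed there. Icos made up most of those sums, at 666 ± 36.8 CPM with Bach2 and 926 ± 15.9 CPM with the empty vector (SD, n = 2 each). Icos was lower in Tfh cells, at 564 and 665 CPM. Markers that were far higher in Tfh cells were also lower with Bach2 in non-Tfh cells. Pdcd1 averaged 112 CPM with Bach2 and 182 CPM with the empty vector there, and Il21 22.7 and 59.1 CPM. Tox2 averaged 12.1 and 24.0 CPM, and Bcl6 15.2 and 22.4 CPM. Cxcr5 differed little, at 20.4 ± 4.31 and 22.8 ± 7.69 CPM (SD, n = 2 each), and Ascl2 had 1 count with each vector. Whether the share of Tfh cells differed was not tested. In the mean of both cell types 3 of the 10 fell, Bcl6 by 0.48, Il21 by 1.02 and Icos by 0.36 (adjusted p 0.0136, 0.02 and 0.0143 in edgeR's test). The 12 markers of non-Tfh helper cells summed to 5036 to 5907 CPM in Bach2 non-Tfh cells and 5583 to 5879 CPM in empty-vector non-Tfh cells, with a median log2 difference of -0.20. Of these, Prdm1, which encodes the effector regulator Blimp-1, fell in non-Tfh cells, with 12.3 ± 3.14 CPM with Bach2 and 28.5 ± 1.62 CPM with the empty vector (SD, n = 2 each; log2 difference -1.21, SE 0.227, adjusted p 0.0212 in edgeR's test). In the mean 4 of the 12 fell (Gzmb, Cxcr3, Cxcr6 and Il2ra) and 1 rose (Ccr7). Gzmb, which encodes granzyme B, averaged 40.2 ± 10.2 CPM in Bach2 non-Tfh cells and 110.6 ± 7.48 CPM in empty-vector non-Tfh cells (SD, n = 2 each). In non-Tfh cells alone Prdm1 was the 1 marker of the 12 to pass, so Gzmb did not. Ccr7 was higher with Bach2 there, at 634 ± 5.55 and 415 ± 24.5 CPM (SD, n = 2 each). S1pr1 (757 and 704 CPM) and Klf2 (515 and 471 CPM) had higher means with overlapping libraries, and Selplg was level at 1351 CPM with both vectors. The part of these lists in the results was not tested. The named genes of both lists were chosen after their values were seen.

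Some sums of markers of other cells differed between vectors in non-Tfh cells. The 10 monocyte and macrophage markers summed to 158 to 230 CPM in Bach2 non-Tfh cells and to 253 to 288 CPM in empty-vector non-Tfh cells, in the direction of Cd7, Hrh4, Adam8 and Ggt1. Most of this was Ccr2, a chemokine receptor that effector T cells express too, at 179 ± 55.5 CPM with Bach2 and 257 ± 22.2 CPM with the empty vector (SD, n = 2 each). The median log2 difference of the 7 tested markers was 0.0081, so the lower sum was that of Ccr2 and not of the list. The defining markers Csf1r, Adgre1, Spi1 and Tyrobp were below 1 CPM on average in every group, and none of the 7 tested markers passed. In non-Tfh cells these averaged 0.991, 0.324, 0.539 and 0.106 CPM with Bach2. With the empty vector they averaged 0.719, 0, 0.110 and 0.165 CPM. Lyz2 averaged 4.46 CPM with Bach2 and 4.41 CPM with the empty vector there, and Itgam 4.38 and 4.91 CPM. The 6 NK cell markers summed to 95.5 to 121 CPM in Bach2 non-Tfh cells and to 65.3 to 74.7 CPM in empty-vector non-Tfh cells, in the direction of Igfbp4, AA467197 and Ly6c2. Gzma made up most of that sum, at 81.6 ± 21.4 CPM with Bach2 and 51.6 ± 13.7 CPM with the empty vector (SD, n = 2 each), while Ncr1 and Klra8 had 0 counts in all 8 libraries. The 8 markers of plasmacytoid dendritic cells, which also carry Ly6c2, summed to 143 to 153 CPM with Bach2 and 172 to 178 CPM with the empty vector. Most of these sums was Bst2 and Runx2. They averaged 63.8 ± 3.27 and 64.5 ± 6.38 CPM with Bach2 and 72.5 ± 0.762 and 79.1 ± 4.86 CPM with the empty vector (SD, n = 2 each). Siglech had 0 counts in the Bach2 and 1 in the empty-vector non-Tfh libraries, too few to show a difference. Regulatory T cell markers summed to 407 to 449 CPM with Bach2 and 348 to 357 CPM with the empty vector in non-Tfh cells, mostly from Nrp1, and Foxp3 averaged 2.84 ± 0.777 and 1.72 ± 1.97 CPM (SD, n = 2 each). No marker of these 4 lists passed in non-Tfh cells, and their part in the results was not tested.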

How the data were processed

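Counts of RNA-seq reads per gene were deposited by the authors, 1 whole-number column per library. Per the submitters' processing notes, TopHat2, Bowtie2 and featureCounts were used with GRCm38/mm10. Their versions and the treatment of multiply mapped reads were not given in the sources used here. Per the labels' protocols, RNA was amplified with Smart-Seq v4, which does not mark strand, and sequenced without molecular identifiers, so floors cover counting error only. The 1572 IDs without a symbol in the GENCODE M21 annotation, 0.187% to 0.205% of counts, stayed in the fit.

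Counts were fitted in edgeR 4.0.16 (R 4.3.3; filterByExpr with a minimum count of 10, TMM, robust quasi-likelihood, 4 group means, 8 libraries), with Benjamini-Hochberg adjustment over 11475 genes and a threshold of 0.05. The script was tested on simulated data. Alternatives were DESeq2 1.42.0, other normalization and filters, non-robust estimation, the libraries of 1 cell type alone, a replicate block, and each library left out. The 8 genes and all lists were chosen with earlier results of these data known. Named genes are the 8, Bach2, the Ly6c2 copies, up to 4 genes per list that passed, and the 2 nearest in profile to each of the 8. Genome neighbours, shared windows, promoter letters and the set with a gap at least as wide as that of Cd7 were added after the data were seen.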

Additional observations from a re-analysis of the deposited data

How the results depend on the processing

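Of the log2 differences of the 8 genes recomputed under each alternative, 420 kept their direction and side of the threshold or had no adjusted p. Of the rest, 11 gained and 17 lost a call, and 14 changed direction. The number of genes past the threshold in non-Tfh cells was 158 with DESeq2, 332 with no filter on low counts and 207 with the replicate number as a block, against 100 as reported, and 17 to 133 with 1 library left out. In Tfh cells it was 313, 736 and 473, against 196, and 21 to 254 with 1 library left out. For the mean it was 1255 with no filter and 975 with the block, against 605, and 190 to 764 with 1 library left out. For the difference between cell types it was 4, 37 and 3, against 0, and 0 to 1 with 1 library left out. Of the 8 genes, 5 passed in non-Tfh cells and 1 (Cd7) in Tfh cells with no filter. With 1 library left out, 0 to 3 passed in non-Tfh cells, 0 to 1 in Tfh cells and 2 to 4 in the mean; a lone library is then assumed to vary like the other groups.

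Direction changed only with 1 library left out, and for no value past the threshold, over these ranges. In non-Tfh cells Ust ran from -0.13 to 0.15. In Tfh cells Ust ran from -1.08 to 1.05, AA467197 from -0.69 to 0.092 and Ly6c2 from -0.083 to 0.97. In the mean Ust ran from -0.53 to 0.53. The difference between cell types ran from -0.48 to 0.19 for Hrh4, -0.036 to 0.42 for Ggt1, -1.10 to 1.03 for Ust and -0.57 to 0.49 for Ly6c2. The cause was not tested.

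Replicate numbers are shared between groups, but with 2 per group they were not taken as pairs. Correlations of same-numbered deviations over genes ran from -0.0041 to 0.240 for the 6 pairs of groups. The highest were between Tfh and non-Tfh cells of the same vector, 0.240 with Bach2 and 0.208 with the empty vector. The others reached 0.129. The fits as reported took the libraries as independent, and no label says whether equal numbers share nodes. Under the replicate block Igfbp4 passed in non-Tfh cells and in the mean (adjusted p 0.00121 and 0.0258 in edgeR's test). Depth limits the Tfh levels of Ust, AA467197, Adam8 and Igfbp4, which rest on 3 to 18 counts per library.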
